A study of Mus musculus with 18 samples.

Results

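The enzymes described here carry methyl groups from choline to methionine in the liver and take sarcosine and homocysteine onward. They are the products of 10 genes, picked by name out of the 54532 genes listed: Chdh, Dmgdh, Sardh, Bhmt, Mat1a, Gnmt, Ahcy, Cbs, Shmt1 and Pemt. Chdh, Dmgdh and Sardh use flavin adenine dinucleotide (FAD), which is made from riboflavin (vitamin B2), and the other 7 do not. The question was whether the RNA of these 3 FAD-dependent enzymes differed from that of the other 7 when riboflavin was withheld.

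Choline is oxidised in mitochondria by choline dehydrogenase (Chdh) on the way to betaine. Betaine-homocysteine methyltransferase (Bhmt), a zinc enzyme, moves 1 methyl group of betaine to homocysteine, which gives methionine and dimethylglycine. Dimethylglycine dehydrogenase (Dmgdh) and sarcosine dehydrogenase (Sardh) then remove the remaining methyl groups in turn. Both hold FAD covalently and pass electrons to the electron transfer flavoprotein. Methionine is activated to S-adenosylmethionine by the liver methionine adenosyltransferase (Mat1a), and that methyl donor is spent by glycine N-methyltransferase (Gnmt), which makes sarcosine, and by phosphatidylethanolamine N-methyltransferase (Pemt), which makes phosphatidylcholine. Adenosylhomocysteinase (Ahcy), which carries a bound NAD, frees homocysteine again. Cystathionine beta-synthase (Cbs) and serine hydroxymethyltransferase 1 (Shmt1) use pyridoxal phosphate. Cbs commits homocysteine to cysteine, and Shmt1 interconverts serine and glycine in the cytosol.

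Liver RNA was sequenced from 18 male wild-type C57BL/6J mice, 1 library per mouse. Ctrl (5 mice) and B2D (5 mice) were fed a control diet or a diet lacking vitamin B2 for 1 month. Ctrl+FF (4 mice) and B2D+FF (4 mice) were fed the same diets for 9 weeks, received the PPARα agonist fenofibrate (FF) by gavage in weeks 7 to 9, and were dosed 2 hours before harvest. All mice started the diets at 4 weeks of age and were fasted overnight, and both diets were defined mixtures of amino acids with equal choline and methionine. Values are FPKM (fragment counts corrected for gene length and a library size) in a table without and a table with fenofibrate. The library size divided out was between 0.936 (B2D+FF 4) and 1.114 (B2D 2) times the reads on genes, and 1.099 times in B2D+FF 2. The tables may each have been normalised on their own. Diets were therefore compared within a table, and the effect of fenofibrate cannot be told apart from the longer time on the diet or from the table. Between 15320729 and 21898502 reads fell on genes in each library, and the 10 genes held between 1979 and 270415 reads in any mouse, so depth did not limit them. Across genes, Pearson's r of log2(FPKM + 1) for pairs of mice within a group was between 0.955 and 0.989.

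The hepatocyte markers (Alb, Ttr, Apoa1, Serpina1c and Asgr1) summed to between 17728 and 43874 FPKM in every mouse, whereas markers of bile duct, macrophage, endothelial, stellate and blood cells summed to at most 103.3 FPKM per list. The hepatocyte sums overlapped between Ctrl (29898 to 40584 FPKM) and B2D (30260 to 43874 FPKM) but not between Ctrl+FF (20735 to 23744 FPKM) and B2D+FF (17728 to 20314 FPKM), and the part of that difference in the values with fenofibrate was not tested. In bulk liver, fewer cells of a type and less RNA per cell cannot be told apart.

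The genes lie in pairs on 5 chromosomes (GRCm38 coordinates as in the tables), and all 10 are protein-coding. Sardh is at chr2:27188393-27248337 and Ahcy at chr2:155059310-155074497, both on the minus strand. Pemt (chr11:59970614-60046489) and Shmt1 (chr11:60788104-60811718) are both on the minus strand, 741.6 kb apart. Bhmt (chr13:93616675-93637961, minus) and Dmgdh (chr13:93674433-93752833, plus) are 36.5 kb apart, with the paralog Bhmt2 between them. Chdh (chr14:30009023-30040527) and Mat1a (chr14:41105035-41124412) are on the plus strand. Cbs (chr17:31612623-31637199) and Gnmt (chr17:46725664-46729168) are on the minus strand. The RNA libraries came from a kit that does not mark strand, so reads of overlapping genes could not be assigned by strand. The most covered overlapping gene was Smcr8, at the end of Shmt1, with at most 849 reads where Shmt1 held between 1979 and 4006. The antisense gene Gm15622 inside Bhmt held at most 428 reads where Bhmt held at least 44465. A processed pseudogene of Bhmt (Bhmt-ps1, on chromosome 4) held at most 152 reads.

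Sequences before the RefSeq starts of the FAD-dependent genes are shown because Chdh and Dmgdh each start head to head with another gene. The RefSeq start used for Sardh (chr2:27247303) lies inside the gene as placed above, and so does its whole window. Bases beyond the annotated 5′ end of Sardh were not examined, so a head-to-head neighbour there was not looked for. RefSeq windows (GRCm38.p6) matched 9 of the 10 genes, with none for Mat1a. The lines give the longest stretch without an annotated exon among the 250 bases before each RefSeq start, 5′ to 3′ on the gene's own strand. Capitals mark a match to a searched motif, on either strand.
Chdh, chr14:30008897-30008999, plus: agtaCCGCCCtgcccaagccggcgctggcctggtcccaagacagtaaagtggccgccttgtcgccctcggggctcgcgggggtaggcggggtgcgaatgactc
Dmgdh, chr13:93674303-93674432, plus: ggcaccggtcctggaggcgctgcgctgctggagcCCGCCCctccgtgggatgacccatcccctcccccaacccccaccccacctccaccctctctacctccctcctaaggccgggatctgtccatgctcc
Sardh, chr2:27247415-27247553, minus: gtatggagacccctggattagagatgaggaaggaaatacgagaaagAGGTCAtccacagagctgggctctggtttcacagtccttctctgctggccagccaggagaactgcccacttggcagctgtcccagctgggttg

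The Chdh stretch separates it from Il17rb, and the Dmgdh stretch separates it from Bhmt2, with the neighbour on the opposite strand in both. The Chdh and Dmgdh stretches were 69.9% and 70.8% G or C, and that of Sardh was 55.4%. The Sardh stretch lies inside the annotated gene, so the stretches are not at like positions. Il17rb was measured at 1.68 to 5.68 FPKM and Bhmt2 at 58.4 to 115.7 FPKM over all mice. The search covered the 250 bases before each RefSeq start, and upstream is meant in that sense here. Some genes had more than 1 window, and 12 windows were searched for these genes. A GC box (GGGCGG) was present upstream of Chdh, Dmgdh, Ahcy, Cbs and Shmt1, in 5 of the 12 windows, and in 32.7% of all windows. A nuclear receptor half-site (AGGTCA) was present upstream of Sardh, Ahcy, Bhmt and Gnmt, in 4 of the 12 windows, and in 14.0% of all windows. For Sardh these bases lie inside the annotated gene. A CCAAT box (CCAAT) was present in 6 of the 12 windows and in 33.8% of all windows. It was found upstream of Ahcy, Bhmt, Cbs, Gnmt, Pemt and Shmt1 but in none of the windows of the 3 FAD-dependent genes. An E-box (CACGTG, 6.02%) was found upstream of Cbs alone, and neither a TATA box (TATAAA, 12.4%) nor the amino acid response element TGATGNAAT (0.816%) was found in any of the 12 windows. The motifs do not overlap each other in the printed stretches. These are matches of letters, and no binding was measured.

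In every group Mat1a was the most abundant of the 10 RNAs, with group means from 2102.8 to 3956.7 FPKM, and no mouse of a group had a Mat1a level within the range of the next gene. It ranked 19th of the 11574 genes tested without fenofibrate and 24th of 11878 with it. Gnmt, Ahcy and Bhmt followed, with group means from 657 to 1361 FPKM and ranges that overlapped between neighbours, except that Gnmt stood above Ahcy in every Ctrl+FF mouse. A gap separated these 4 from the rest in every group. Among the others, Sardh and Dmgdh (105.1 to 148 FPKM) overlapped each other in all 4 groups. Pemt lay at 87.0 to 107 FPKM and Shmt1 and Chdh at 33.7 to 48.9 FPKM. Cbs was at 88.0 and 106 FPKM in Ctrl and B2D and at 45.1 and 49.3 FPKM in Ctrl+FF and B2D+FF. These levels come from separate tables that may be normalised differently, and their difference was not tested. Bhmt varied most between mice in 3 of the 4 groups, with a coefficient of variation of up to 35.1%, and Gnmt in the fourth. Shmt1, Mat1a, Pemt and Cbs each varied least in 1 group, between 5.51% and 7.47%.

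**Figure D1:**
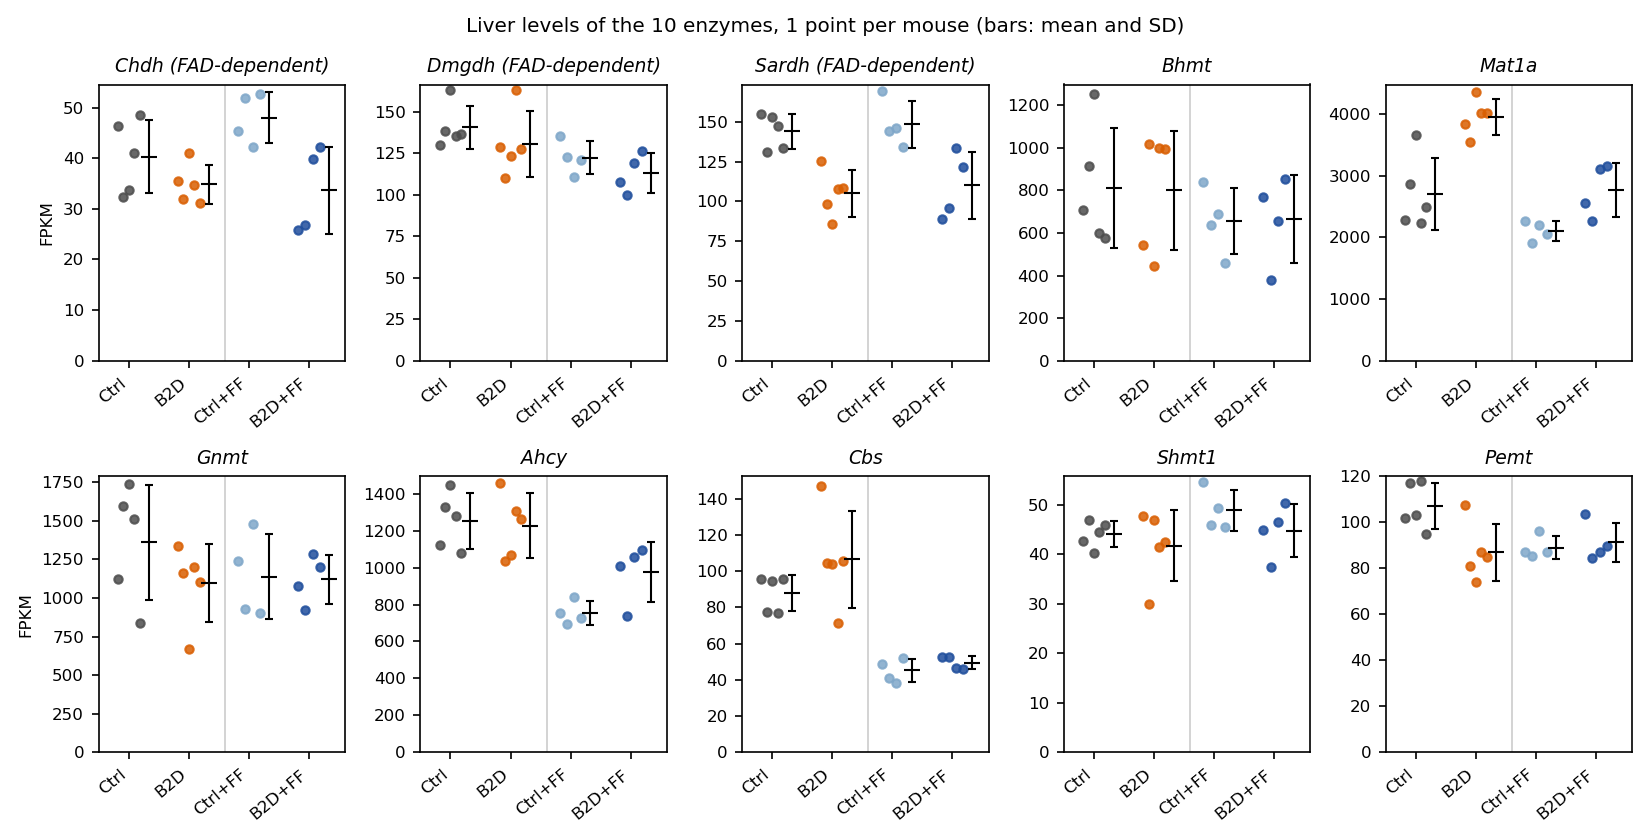
FPKM of each of the 10 genes (y axis, from 0) in the 4 groups (x axis), 1 point per mouse, with the mean and SD as bars and a line between the tables without and with fenofibrate. Sardh in B2D (85.7 to 125 FPKM) lay below Ctrl (131 to 155 FPKM) with no overlap, whereas the points of Bhmt spread widely in every group.

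None of the 10 genes passed the threshold in either diet comparison. B2D was compared with Ctrl by limma on log2(FPKM + 1) over all genes that averaged 0.5 FPKM or more, with Benjamini-Hochberg adjustment and a threshold of 0.05, and all log2 fold changes are on that scale. Without fenofibrate, 0 of 10 passed, where 1.94% of all 11574 genes were called lower and 0.769% higher. At an unadjusted p under 0.05, limma gave Sardh and Pemt lower and Mat1a higher, where 10.1% of all genes were lower and 8.24% higher at that level. The limma voom fit on recovered reads called 1 of the 10, Mat1a (adjusted p = 0.0454). With fenofibrate, 0 of 10 passed in B2D+FF against Ctrl+FF, where 2.21% of 11878 genes were called lower and 2.24% higher. Chdh and Sardh were lower and Mat1a and Ahcy higher at an unadjusted p under 0.05, a level at which 9.93% of all genes were lower and 11.3% higher, and voom called none of the 10.

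Sardh, which turns sarcosine into glycine, was the FAD-dependent gene with the clearest separation of diets. Its level was 155, 131, 153, 147 and 134 FPKM in the Ctrl mice and 125, 98.2, 85.7, 108.1 and 108.1 FPKM in the B2D mice. The B2D values all lay under the Ctrl values, a pattern seen for 2.89% of all genes tested. The B2D mean of 105.1 ± 14.6 FPKM (SD, n = 5) was 73.0% of the Ctrl mean of 144 ± 10.9 FPKM (SD, n = 5). The log2 fold change was -0.46 (SE 0.116, 95% interval -0.71 to -0.20) with a limma adjusted p of 0.0615. The exact permutation test, two-sided, gave p = 0.00794, the smallest that 5 against 5 mice allow and not adjusted for the genes looked at. Every gene without overlap reaches that p, so it restates the separation. Sardh passed the threshold when B2D 1, the B2D mouse with the most Sardh, was left out (log2 fold change -0.52, adjusted p = 0.0378).

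With fenofibrate Sardh was at 169, 144, 146 and 134 FPKM in Ctrl+FF and at 89.1, 96.0, 133.2 and 122 FPKM in B2D+FF. The groups again did not overlap, as was the case for 6.44% of all genes tested in that comparison, although the highest B2D+FF mouse lay just under the lowest Ctrl+FF mouse. The B2D+FF mean was 74.1% of the Ctrl+FF mean, which corresponds to a log2 fold change of -0.44 (SE 0.143, 95% interval -0.77 to -0.12) and a limma adjusted p of 0.114. The exact permutation test gave 0.0286, the lowest p possible with 4 against 4 mice, which again restates the lack of overlap. The difference between both diet effects on Sardh was 0.01 (95% interval -0.37 to 0.39, limma adjusted p = 0.985).

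Chdh, the entry step from choline, did not separate without fenofibrate. The Ctrl mice were at 46.3, 32.3, 33.7, 41.0 and 48.5 FPKM and the B2D mice at 35.4, 32.04, 41.0, 34.7 and 31.1 FPKM. On the log2 scale B2D minus Ctrl was -0.19 (95% interval -0.48 to 0.10, limma adjusted p = 0.456). With fenofibrate, Chdh was at 45.4, 52.0, 42.1 and 52.7 FPKM in Ctrl+FF and at 25.9, 26.8, 39.9 and 42.2 FPKM in B2D+FF. All B2D+FF mice but one were below all Ctrl+FF mice, and B2D+FF 4 was level with the lowest of them. The B2D+FF mean was 70.1% of the Ctrl+FF mean, with a log2 fold change of -0.53 (SE 0.171, 95% interval -0.91 to -0.14, limma adjusted p = 0.114). B2D+FF 1 and B2D+FF 2 were the lowest of all 8 mice for both Chdh and Sardh. Low values of B2D+FF 2 were not limited to these genes. It was also the lowest B2D+FF mouse for Dmgdh, Bhmt, Mat1a, Gnmt, Ahcy, Shmt1 and Pemt, though not for Cbs. The diet effect on Chdh with fenofibrate minus that without was -0.33 (95% interval -0.80 to 0.13, limma adjusted p = 0.564).

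Dmgdh, the step between Bhmt and Sardh, differed least of the 3. It was at 129.7, 139, 163, 135 and 136 FPKM in Ctrl and at 129, 109.9, 123, 163 and 128 FPKM in B2D, with overlap. The log2 fold change was -0.11 (95% interval -0.38 to 0.15, limma adjusted p = 0.642). In Ctrl+FF it was at 135, 123, 110.5 and 121 FPKM and in B2D+FF at 107, 99.5, 119 and 126 FPKM, with a log2 fold change of -0.11 (95% interval -0.35 to 0.13, limma adjusted p = 0.586). Both intervals include a decrease of the size estimated for Chdh without fenofibrate, which itself did not pass, so a similar small effect is not excluded. The direction of Dmgdh without fenofibrate turned under quantile normalisation (log2 fold change 0.00495). Its neighbour Bhmt2, which starts 131 bases away on the other strand, had log2 fold changes of 0.02 (limma adjusted p = 0.953) and -0.21 (limma adjusted p = 0.473).

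Mat1a, which makes S-adenosylmethionine, had the largest positive difference among the members in both comparisons. It was at 2286, 2863, 3660, 2237 and 2499.6 FPKM in Ctrl and at 3840.3, 3547, 4357, 4017 and 4021 FPKM in B2D. Ctrl 3 lay among the B2D mice, and the other 4 Ctrl mice were below all of them. The B2D mean of 3956.7 ± 296 FPKM (SD, n = 5) was 146% of the Ctrl mean of 2709 ± 586 FPKM (SD, n = 5), with a log2 fold change of 0.57 (SE 0.144, 95% interval 0.25 to 0.88) and a limma adjusted p of 0.0621. Without Ctrl 3 the log2 fold change was 0.68 and passed the threshold (adjusted p = 0.0159). With fenofibrate, Mat1a was at 2259, 1909, 2195 and 2048 FPKM in Ctrl+FF and at 2560.1, 2258, 3114 and 3156 FPKM in B2D+FF. B2D+FF 2 was level with the highest Ctrl+FF mouse, and the other 3 were above. The log2 fold change was 0.39 (SE 0.137, 95% interval 0.08 to 0.70) with a limma adjusted p of 0.143, and 0.52 under quantile normalisation, which passed the threshold (adjusted p = 0.0497).

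Ahcy, which removes the product of methyl transfer, was at 1082 to 1449 FPKM in Ctrl (median 1277) and at 1037 to 1458 FPKM in B2D (median 1264), and the difference was -0.03 on the log2 scale (limma adjusted p = 0.922). With fenofibrate it was at 753, 696, 842 and 725 FPKM in Ctrl+FF and at 1006, 739, 1059 and 1098 FPKM in B2D+FF. All B2D+FF mice but one were above all Ctrl+FF mice, and B2D+FF 2 lay among them. Its log2 fold change was 0.36 (SE 0.142, limma adjusted p = 0.189), and 0.49 without B2D+FF 2, which passed (adjusted p = 0.038). The diet effect with fenofibrate minus that without was 0.39 for Ahcy (95% interval -0.01 to 0.79, limma adjusted p = 0.430).

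Bhmt and Gnmt differed more between mice of a diet than between diets. In Ctrl Bhmt ranged from 576 to 1254 FPKM (median 708) and in B2D from 447 to 1017 FPKM (median 996). Of the B2D mice, 3 were at or above 995.9 FPKM and the other 2 at or below 542 FPKM. The log2 fold change was -0.04 (95% interval -0.66 to 0.57, limma adjusted p = 0.954) without fenofibrate and -0.01 (95% interval -0.61 to 0.59, limma adjusted p = 0.986) with it. Gnmt ranged from 835 to 1738 FPKM in Ctrl and from 671 to 1338 FPKM in B2D, with a log2 fold change of -0.30 (95% interval -0.80 to 0.20, limma adjusted p = 0.509). In Ctrl+FF (899.5 to 1478 FPKM) and B2D+FF (921 to 1287 FPKM) the B2D+FF mean of Gnmt was 98.6% of the Ctrl+FF mean (limma adjusted p = 0.999). The intervals of Bhmt in both comparisons and of Gnmt without fenofibrate include a decrease as large as that of Sardh.

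Pemt, which makes phosphatidylcholine from phosphatidylethanolamine, was at 102, 117, 103, 118 and 94.7 FPKM in Ctrl and at 107, 81.2, 74.1, 87.2 and 84.9 FPKM in B2D. All B2D mice but one were below all Ctrl mice, and B2D 1 lay among them. The log2 fold change was -0.30 (SE 0.118, 95% interval -0.56 to -0.05, limma adjusted p = 0.199). With fenofibrate Pemt was at 85.5 to 96.3 FPKM in Ctrl+FF and at 84.4 to 103.7 FPKM in B2D+FF, and the log2 fold change was 0.03 (95% interval -0.18 to 0.24, limma adjusted p = 0.876). That sign turned under upper-quartile rescaling and quantile normalisation (-0.0274 and -0.0298). The difference of the diet effects was the one member value with an unadjusted p under 0.05 in that contrast, 0.34 (95% interval 0.02 to 0.65), and its limma adjusted p was 0.389.

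Cbs, the exit to cysteine, was at 76.9 to 95.5 FPKM in Ctrl and at 71.2 to 147 FPKM in B2D, where B2D 1 was the highest and B2D 4 the lowest. Its log2 fold changes were 0.24 (95% interval -0.12 to 0.61, limma adjusted p = 0.456) without and 0.13 (95% interval -0.12 to 0.39, limma adjusted p = 0.542) with fenofibrate. Shmt1 was at 40.2 to 46.9 FPKM in Ctrl and at 29.9 to 47.8 FPKM in B2D, and B2D 2 was the only B2D mouse below the Ctrl range. Its log2 fold changes were -0.09 (limma adjusted p = 0.737) and -0.13 (limma adjusted p = 0.550).

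In the contrast of both diet effects, fitted over all 18 libraries, limma called 0 of the 10 genes, where 0.101% of 11862 genes were lower and 0.126% higher. At an unadjusted p under 0.05, 1 of 10 was higher (Pemt) and none lower, where 5.21% of all genes were lower and 6.69% higher, and voom called none of the 10. The members' differences ranged from -0.33 for Chdh to 0.39 for Ahcy.

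**Figure D2:**
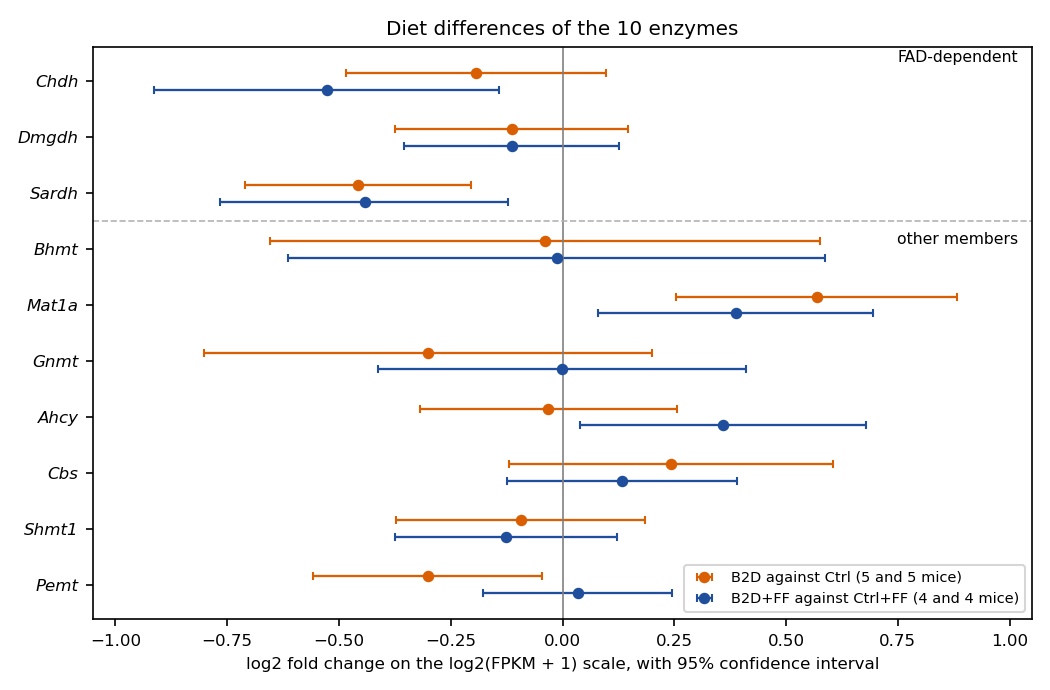
Log2 fold change of each gene (x axis, log2(FPKM + 1) scale) with its 95% confidence interval from limma, for B2D against Ctrl (5 and 5 mice) and B2D+FF against Ctrl+FF (4 and 4 mice). The 3 FAD-dependent genes lie left of 0 in both comparisons, from -0.53 to -0.11, and Mat1a and Cbs lie right of 0 in both.

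Side by side, all 3 FAD-dependent genes had a lower mean on the deficient diet in both comparisons, with a median log2 fold change of -0.19 without and -0.44 with fenofibrate. Of the other 7 genes, 5 had a negative and 2 a positive log2 fold change without fenofibrate (median -0.04), and 3 a negative and 4 a positive one with it (median 0.03). Over all genes tested the medians were -0.001 and 0.013. Groups did not overlap for 1 of the 3 FAD-dependent genes (Sardh) and for none of the other 7 in either comparison, where 2.89% of all genes were lower and 2.08% higher without overlap without fenofibrate, and 6.44% lower and 7.82% higher with it.

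The mean log2(FPKM + 1) of Chdh, Dmgdh and Sardh minus that of the other 7 was computed in each mouse as a description, without a test. It was -1.89, -2.32, -2.28, -2.0 and -1.82 in Ctrl and -2.39, -2.42, -2.15, -2.22 and -2.45 in B2D. Ctrl 2 and Ctrl 3 lay within the B2D range, and the other 3 Ctrl mice were above it. The group means were -2.06 ± 0.23 (SD, n = 5) and -2.32 ± 0.13 (SD, n = 5), a difference of -0.26. The FAD-dependent mean was 0.26 lower in B2D and the mean of the other 7 was 0.01 higher.

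With fenofibrate the same quantity was -1.69, -1.51, -1.86 and -1.54 in Ctrl+FF and -2.42, -2.06, -1.98 and -2.04 in B2D+FF, with no overlap. The group means of -1.65 ± 0.16 (SD, n = 4) and -2.12 ± 0.20 (SD, n = 4) differed by -0.47, of which the FAD-dependent mean gave -0.36 and the other 7 gave 0.11. Leaving out Sardh changed the difference to -0.16 without fenofibrate and to -0.43 with it. Leaving out Mat1a changed it to -0.17 and -0.43. Both omissions were chosen after the data were seen.

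**Figure D3:**
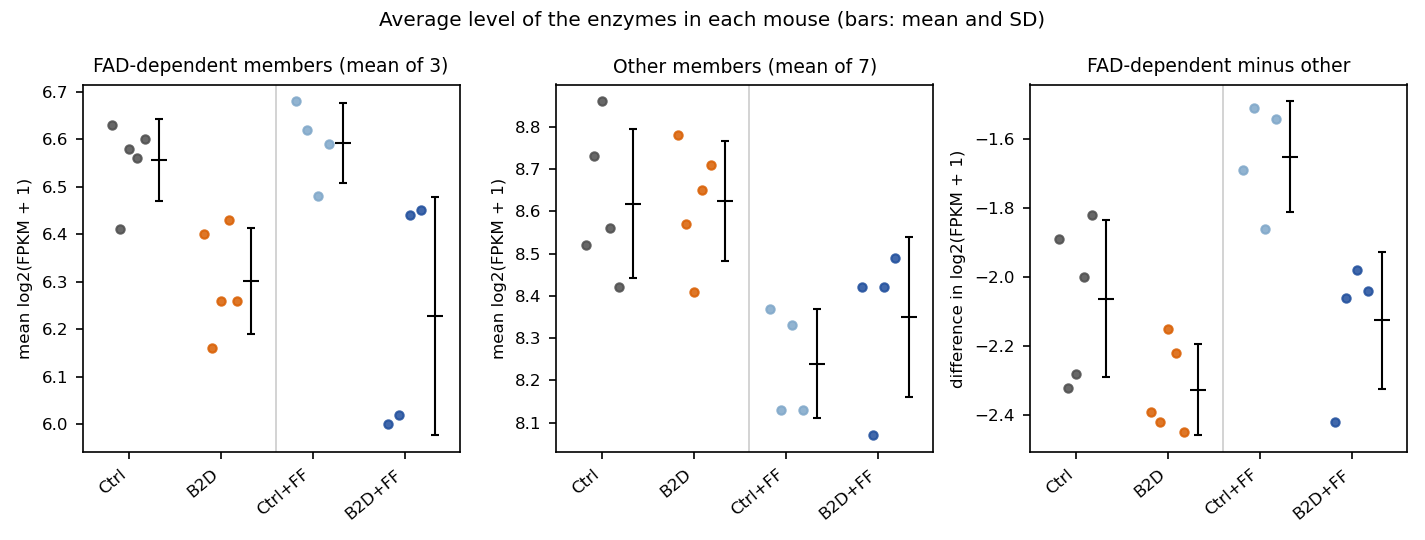
Mean log2(FPKM + 1) of the 3 FAD-dependent genes, of the other 7, and their difference (y axes, which do not start at 0) in each mouse of the 4 groups, with the mean and SD as bars. The difference spans -1.86 to -1.51 in Ctrl+FF and -2.42 to -1.98 in B2D+FF, and overlaps between Ctrl and B2D.

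Other genes of the pathway, 59 in 9 lists, were read for context. Of the 53 tested without fenofibrate, 3 were lower and none higher past the threshold, where 1.94% of all genes were lower and 0.769% higher, and the median log2 fold change of the lists was -0.03. Of the 55 tested with fenofibrate, 2 were lower and 3 higher, where 2.21% of all genes were lower and 2.24% higher, and the median was 0.00. The rest of the list was too low to be tested.

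Among the methyltransferases that spend S-adenosylmethionine, Gamt and Inmt fell in both comparisons. Gamt, the last step of creatine synthesis, ranged from 31.0 to 63.6 FPKM in Ctrl (median 45.2) and from 14.0 to 24.5 FPKM in B2D (median 19.6). All B2D mice were below all Ctrl mice, and the log2 fold change was -1.23 (SE 0.206, limma adjusted p = 0.0115). With fenofibrate Gamt was 29.4 to 53.4 FPKM in Ctrl+FF and 9.66 to 19.6 FPKM in B2D+FF, a log2 fold change of -1.40 (SE 0.232, limma adjusted p = 0.0136). Inmt, an indolethylamine and thioether methyltransferase, fell from a mean of 304 to 128 FPKM (log2 fold change -1.18, limma adjusted p = 0.0204) and from 555 to 263 FPKM (log2 fold change -1.08, limma adjusted p = 0.0171), without overlap. Inmt lost its call without Ctrl 1 or 2 (limma adjusted p up to 0.0668) or Ctrl+FF 1 or 2 (up to 0.0644).

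With fenofibrate 1 of 5 tested glycine cleavage genes (Gldc), 1 of 2 serine synthesis genes (Psat1) and 1 of 7 folate genes (Mthfd1l) passed the threshold, all higher. The difference of the diet effects did not pass for Gldc or Mthfd1l (limma adjusted p = 0.891 and 0.239). Gldc, the glycine decarboxylase of the mitochondrial cleavage system, rose from 36.6 to 42.3 FPKM in Ctrl+FF to 54.7 to 64.8 FPKM in B2D+FF (log2 fold change 0.58, limma adjusted p = 0.00989). Psat1, a serine synthesis enzyme, was low in Ctrl+FF (0.264 ± 0.125 FPKM, SD, n = 4) and at 1.19 ± 0.376 FPKM (SD, n = 4) in B2D+FF (log2 fold change 0.78, limma adjusted p = 0.0156). Mthfd1l, a mitochondrial folate enzyme that releases formate, rose from a mean of 0.816 to 1.83 FPKM (log2 fold change 0.64, limma adjusted p = 0.0245). The log2(FPKM + 1) scale understates the change of Psat1 and Mthfd1l at these levels. Mthfd1l lost its call without Ctrl+FF 1, 2 or 3 or B2D+FF 1 or 4 (adjusted p up to 0.0809), and Psat1 without Ctrl+FF 1 or 2 (up to 0.0515).

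The flavin-dependent genes next to the cycle that are described here did not pass the threshold. The electron transfer flavoprotein genes Etfa and Etfb, whose product accepts electrons from Dmgdh and Sardh, had log2 fold changes of -0.03 (limma adjusted p = 0.903) and -0.10 (0.704) without fenofibrate, and of 0.23 (0.229) and 0.43 (0.114) with it. Etfb was at 39.2 to 59.3 FPKM in Ctrl+FF and at 63.3 to 79.6 FPKM in B2D+FF. Etfa, Etfb and Dld, described below, were higher there without overlap, as were 7.82% of all genes tested. Etfdh, which hands the electrons to ubiquinone, had log2 fold changes of 0.30 (limma adjusted p = 0.212) and 0.17 (0.451). Pipox, a peroxisomal flavoenzyme that also oxidises sarcosine, had log2 fold changes of -0.40 (limma adjusted p = 0.169) and -0.23 (0.221). Dld, the flavoprotein subunit of glycine cleavage, had log2 fold changes of 0.03 (limma adjusted p = 0.916) and 0.34 (0.0726). Mtrr, the flavoenzyme that keeps methionine synthase active, was low, at 1.23 to 2.65 FPKM over all mice, with log2 fold changes of -0.03 (limma adjusted p = 0.894) and 0.16 (0.361).

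**Figure D4:**
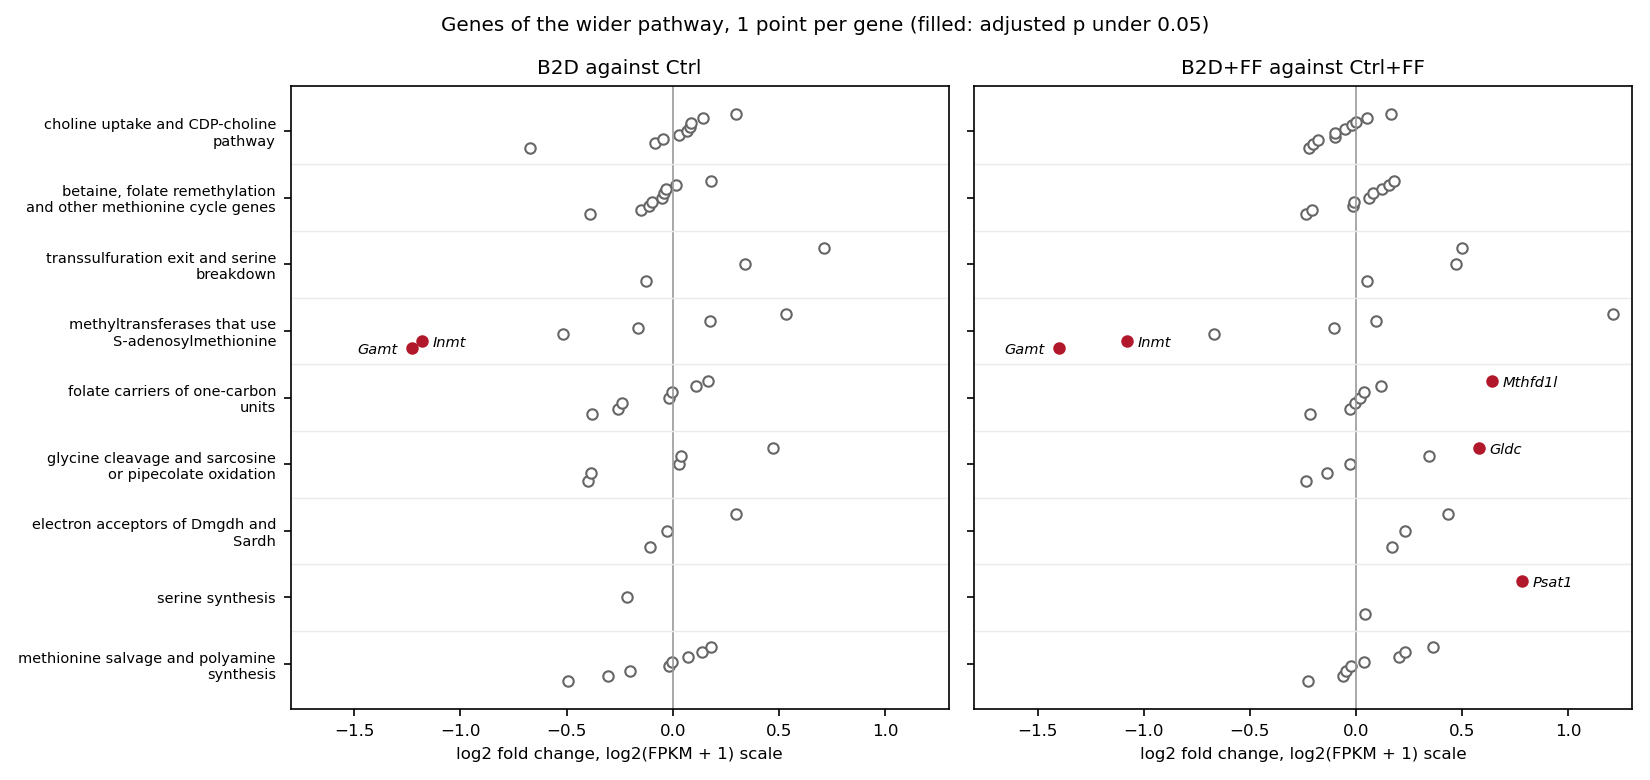
Log2 fold change (x axis) of tested genes of the 9 pathway lists (rows), for the comparison without fenofibrate on the left and with it on the right, with filled points for limma adjusted p under 0.05. Gamt and Inmt are filled on the lower side in both panels, at -1.40 to -1.08, and Psat1, Mthfd1l and Gldc on the higher side with fenofibrate.

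Some cell markers moved with diet beside these genes. Cyp2f2, a periportal hepatocyte marker, fell from 351 to 381 FPKM in Ctrl to 108 to 206 FPKM in B2D, yet the other 4 of the 5 periportal markers did not pass, and the list summed to 1411 to 2129.6 FPKM in Ctrl and 1279 to 1876 FPKM in B2D. With fenofibrate Pck1, of the same list, rose from 415 to 664 FPKM in Ctrl+FF to 766 to 1279 FPKM in B2D+FF, and the list summed to 723 to 1019 FPKM and 925 to 1571 FPKM. Cyp2f2 went the other way there without overlap (183 to 239 FPKM in Ctrl+FF and 78.0 to 163 FPKM in B2D+FF) and did not pass. Hal, Gls2 and Aldh1b1 overlapped. Of 5 macrophage markers Clec4f alone passed (25.5 to 32.7 FPKM in Ctrl and 17.0 to 23.0 FPKM in B2D), and of 5 hepatocyte markers Serpina1c alone passed, with fenofibrate (129 to 179 and 49.5 to 82.2 FPKM). Without fenofibrate Serpina1c was also lower without overlap (564 to 666 FPKM in Ctrl and 145 to 460 FPKM in B2D), like 2.89% of all genes, but did not pass. With fenofibrate Alb and Ttr were lower without overlap, like 6.44% of all genes, and did not pass, whereas Apoa1 and Asgr1 overlapped. Of 5 endothelial markers Lyve1 alone passed, with fenofibrate (4.78 to 6.04 and 7.93 to 14.3 FPKM). The adipocyte list summed to 53.1 to 81.5 FPKM in Ctrl+FF and 97.9 to 149 FPKM in B2D+FF, which was almost all Cidec, a lipid droplet gene that rose, while the defining markers Adipoq, Plin1, Lep and Retn were at or under 2.47 FPKM there. Without fenofibrate no adipocyte marker passed, and the list summed to 25.7 to 52.3 FPKM in Ctrl and 33.5 to 105.5 FPKM in B2D. In B2D Adipoq reached 6.19 FPKM, Plin1 1.23 FPKM and Retn 1.15 FPKM, where the highest Ctrl values were 0.0833 FPKM for Adipoq and 0.0121 FPKM for Plin1, and Retn was at 0 in Ctrl. Pancreatic acinar markers summed to at most 0.401 FPKM. The part of these shifts in the values of the 10 genes was not tested.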

How the data were processed

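Liver RNA from 18 mice was sequenced with a kit that does not mark strand, and the authors deposited FPKM values per gene in 2 tables, one without and one with fenofibrate. The submitters' processing notes name STAR, featureCounts, DESeq2 and mm10, and their versions, the strand setting and the handling of multi-mapping reads are not given in the sources used here. FPKM multiplied by gene length gave whole reads for 100% of values (tolerance 0.05 reads), so depth could be recovered.

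Diets were compared within each table with limma 3.58.1 (R 4.3.3, trend) on log2(FPKM + 1), for genes averaging 0.5 FPKM or more, with Benjamini-Hochberg adjusted p under 0.05. The contrast of both diet effects was fitted over all libraries. Exact permutation tests were two-sided. The scripts were tested on simulated data. Replicate numbers follow the order of deposition and pair nothing. The labels give 1 library per mouse, so p-values measure the spread between mice.

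The 10 genes and all lists were chosen with earlier results of these data known. Of the pathway lists, genes past the threshold, the flavin-dependent genes and Bhmt2 were named. Some of these genes are counted in the list totals but are not reported here by name or in the plot. Il17rb and Smcr8 were chosen after their values were seen, and Aldh7a1, Shmt2 and Gcsh were named from the lists after theirs were seen. The alternatives were another pseudocount, other filters, upper-quartile and quantile scaling, array weights, voom on recovered reads, all groups in 1 fit, and each library left out in turn.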

Additional observations from a re-analysis of the deposited data

Results flagged for a closer look

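In 2 of the 44 groups of values examined, 1 mouse stood apart from the others of its group by Dixon's criterion, which chance alone meets in about 1 in 20 groups. Dmgdh in Ctrl 3 was 163.0 FPKM, where the other Ctrl mice were between 129.7 and 138.6 FPKM (gap over range 0.733). Pemt in Ctrl+FF 3 was 96.3 FPKM, where the other Ctrl+FF mice were between 85.5 and 87.3 FPKM (gap over range 0.839).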

How the results depend on the processing

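Counts of all genes past the threshold moved by over 1.5 times under several settings, and the cause was not tested. Without fenofibrate the count of 313 became 67 with no filter on low values and 731 with all 4 groups in 1 fit, and ranged from 98 (without Ctrl 4) to 332 with each library left out. It also moved without Ctrl 1 (153), Ctrl 2 (109), B2D 2 (161) or B2D 4 (148). With fenofibrate the count of 529 became 272 with no filter and 885 with array weights, and ranged from 175 (without Ctrl+FF 1) to 596. It also moved without Ctrl+FF 2 (188), Ctrl+FF 3 (242), B2D+FF 1 (302) or B2D+FF 4 (298). For the difference of diet effects the count of 27 became 16 with a pseudocount of 0.1, 136 with array weights and 13 with voom, and ranged from 17 (without Ctrl+FF 2) to 66 (without B2D 1), with 42 without Ctrl 5. Upper-quartile rescaling moved the share of lower calls from 49.7% to 62.1% with fenofibrate (366 lower, 223 higher) and from 44.4% to 58.1% for the difference. A fit of all 4 groups moved it from 71.6% to 60.7% without fenofibrate.

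Without fenofibrate the adjusted p of Sardh ranged from 0.0327 to 0.156 and that of Mat1a from 0.0159 to 0.314. Sardh passed with a mean FPKM of at least 5 (0.0448), array weights (0.0382) and all 4 groups (0.0327), and Mat1a with a mean FPKM of at least 5 (0.0398), voom (0.0454) and all 4 groups (0.017). With fenofibrate Mat1a (0.0497 to 0.423) passed with quantile normalisation and array weights, and Ahcy (0.038 to 0.374) with quantile normalisation (0.0403). Chdh (0.0771 to 0.262) and Sardh (0.0618 to 0.265) passed under no setting with fenofibrate. Dld passed there with quantile normalisation (0.0379) and array weights (0.0374). With no filter the calls of Gamt (0.0535) and Inmt (0.078) were lost without fenofibrate, and those of Inmt (0.0529) and Mthfd1l (0.0745) with it. Gldc lost its call with all 4 groups in 1 fit (0.0726).

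Signs turned for log2 fold changes near 0. Without fenofibrate quantile normalisation gave 0.00495 for Dmgdh, 0.18 for Bhmt, 0.10 for Ahcy, 0.0286 for Shmt1 and 0.10 for Etfa. Upper-quartile rescaling gave 0.00033 for Ahcy and 0.0043 for Etfa, and array weights gave 0.0782 for Bhmt. With fenofibrate array weights gave 0.0539 for Bhmt and 0.11 for Gnmt, quantile normalisation 0.20 for Gnmt and -0.0298 for Pemt, and upper-quartile rescaling -0.0274 for Pemt. The difference of diet effects became -0.0939, -0.16 and -0.0204 for Dmgdh and -0.0692, -0.18 and -0.0267 for Bhmt (upper-quartile, quantile, array weights), -0.0805 and -0.14 for Sardh (upper-quartile, quantile), and 0.025 for Shmt1 (array weights). With each library left out, values without fenofibrate ranged from -0.15 to 0.15 for Bhmt, -0.0966 to 0.0261 for Ahcy, -0.15 to 0.019 for Shmt1, -0.0766 to 0.0392 for Mtrr, -0.0311 to 0.0768 for Dld, -0.0619 to 0.00268 for Etfa and -0.0418 to 0.0714 for Bhmt2. With fenofibrate they ranged from -0.17 to 0.23 for Bhmt, -0.10 to 0.14 for Gnmt and -0.0286 to 0.0713 for Pemt. For the difference they ranged from -0.0575 to 0.0841 for Dmgdh, -0.0835 to 0.11 for Sardh, -0.16 to 0.27 for Bhmt, -0.24 to 0.0157 for Cbs and -0.15 to 0.0494 for Shmt1.

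The FAD-dependent mean minus the mean of the other 7 differed between diets by -0.33 to -0.20 without and -0.54 to -0.37 with fenofibrate when each library was left out. No paired analysis was possible because replicate numbers follow the order of deposition only.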
